A study of Mus musculus with 24 samples.

Results

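The genes described here encode the proteins that dock, prime and fuse synaptic vesicles at the presynaptic terminal. They are 31 of the 37621 gene entries counted in the series, chosen by name for this function. Each matched 1 Ensembl identifier, and all 31 had 10 or more counts in 3 or more of the 24 libraries, as did 17915 entries in all. The libraries were made from rRNA-depleted total RNA of dissected cerebellum, cortex, hippocampus and olfactory bulb of C57BL/6 mice. In each region 3 libraries came from Cdr1as knockout mice and 3 from wild type, which gives 8 groups. The labels name no treatment, age or sex, and do not say how the locus was deleted or whether replicates are separate animals. The p-values therefore measure only the spread between these libraries, which may be technical. Each library holds a whole region with all its cell types, so fewer cells of a type and less RNA per cell cannot be told apart.

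The median depth was 16.93 M counts assigned to genes, and libraries lay between 5.18 M and 30.46 M. Cdr1as, the circular RNA whose locus was removed, had 0 to 13 counts in the 12 knockout libraries and 5617 to 130878 in the 12 wild-type libraries. Fewer genes were detected in the 3 libraries with the fewest counts, called shallow below. These were cerebellum knockout 1 (6.5 M counts, 13741 genes), olfactory bulb wild type 1 (7.4 M counts, 16483 genes) and olfactory bulb knockout 2 (5.18 M counts, 14393 genes). The others detected 20024 to 22619 genes, and cortex wild type 2 among them did so with 9.9 M counts (20024 genes). Whether depth or another cause lay behind the lower numbers was not tested. Regional markers followed the labels: the 4 granule cell markers summed to 2570 to 2890 CPM (counts scaled by library size) in cerebellum and to 23.7 to 117 elsewhere, and the 4 olfactory bulb interneuron markers to 934 to 1070 in olfactory bulb and 82.4 to 203 elsewhere.

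Vesicle fusion is driven by SNARE proteins, of which VAMP sits on the vesicle and syntaxin and SNAP25 on the plasma membrane. Synaptotagmins and Doc2 proteins sense calcium, complexins clamp and assist the SNARE complex, and Munc13 and RIM proteins prime vesicles at an active zone scaffolded by Bassoon and Piccolo. Most of these proteins come as paralogues with different calcium affinity, speed or partners, and brain regions are known to use different paralogues. Cdr1as is rich in seed matches to miR-7, a microRNA, and holds a near-complementary site for miR-671.

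The sequences of these microRNAs are shown because a gene's 3′ UTR may hold a match to their seeds, bases 2 to 8, printed here in capitals and taken from RefSeq (build GRCm38.p6). The first pair shares a seed, and miR-671-5p has another.
mmu-miR-7a-5p: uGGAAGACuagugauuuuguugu
mmu-miR-7b-5p: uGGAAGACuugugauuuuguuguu
mmu-miR-671-5p: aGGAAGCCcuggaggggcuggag

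The complement of the miR-7 seed, GTCTTCC, was sought on the transcript strand in the longest 3′ UTR annotated for each gene in GENCODE M21 (GRCm38), a newer build than the counts used. It occurred in 5 of the 31 members (16.1%) and in 2505 of 21690 genes (11.5%). These members were Syt2 with 3 matches, Cplx1 with 4, and Cplx2, Syn3 and Doc2b with 1 each. The median UTR was 2248 bases long among members and 919 among all genes. The match for miR-671-5p, GGCTTCC, occurred in 7 members (22.6%) and in 11.6% of genes. The 3 matches of Syt2 and the single matches of Syn3 and Doc2b are shown 5′ to 3′ with the matched bases in capitals, because these include the members' only matches followed by an A, the base found opposite position 1 of many functional sites. They begin at positions 3302, 4476 and 5309 of the 5471-base UTR of Syt2 (chromosome 1, plus strand), 1715 of 3038 in Syn3 (chromosome 10, minus strand) and 2487 of 2969 in Doc2b (chromosome 11, minus strand).
Syt2, position 3302: acatagcagcaGTCTTCCtgaaggtgggaa
Syt2, position 4476: tctgatggtggGTCTTCCaggcagggcagt
Syt2, position 5309: gagccctccctGTCTTCCtaagaaggacgt
Syn3, position 1715: cgtctccctcaGTCTTCCaaccctaaataa
Doc2b, position 2487: tgaacagtcccGTCTTCCaacccagagtca

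The wild-type libraries were compared first, to ask how each region composes its release machinery. Members differed between regions: the highest regional mean was a median of 2.93 times the lowest, over 10 times for 7 members and under 2 times for 8. Cortex held the highest mean of 16 members and the lowest of none, whereas olfactory bulb held the lowest of 14 and cerebellum the lowest of 12. Neither this range nor these counts were computed over all genes, so they do not show whether the members are unusual. Each region was then tested against the mean of the other 3 with edgeR's quasi-likelihood test and a Benjamini-Hochberg adjusted p under 0.05 over 16995 genes. In cortex 23 of the 31 members were higher, against 19% of all genes, and none was lower, against 14.5%. In olfactory bulb 18 members were lower (17.5% of all genes) and 4 were higher (18.4%). Cerebellum had 11 members higher (22.7%) and 13 lower (24.1%), and hippocampus 11 higher (15.3%) and 5 lower (10.6%). The median log2 difference of the members was 0.61 in cortex, 0.19 in hippocampus, -0.18 in cerebellum and -0.48 in olfactory bulb, and that of all genes lay between -0.01 and 0.02. The 4 higher calls in olfactory bulb fell to 2 without wild-type library 2 or 3 of that region, and 1 member was called lower in cortex without cortex wild type 2. The 4 pan-neuronal markers summed to 1200 to 1580 CPM in wild-type cortex, 1290 to 1460 in cerebellum, 1090 to 1340 in hippocampus and 950 to 1040 in olfactory bulb, and their part in these counts was not tested.

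**Figure D1:**
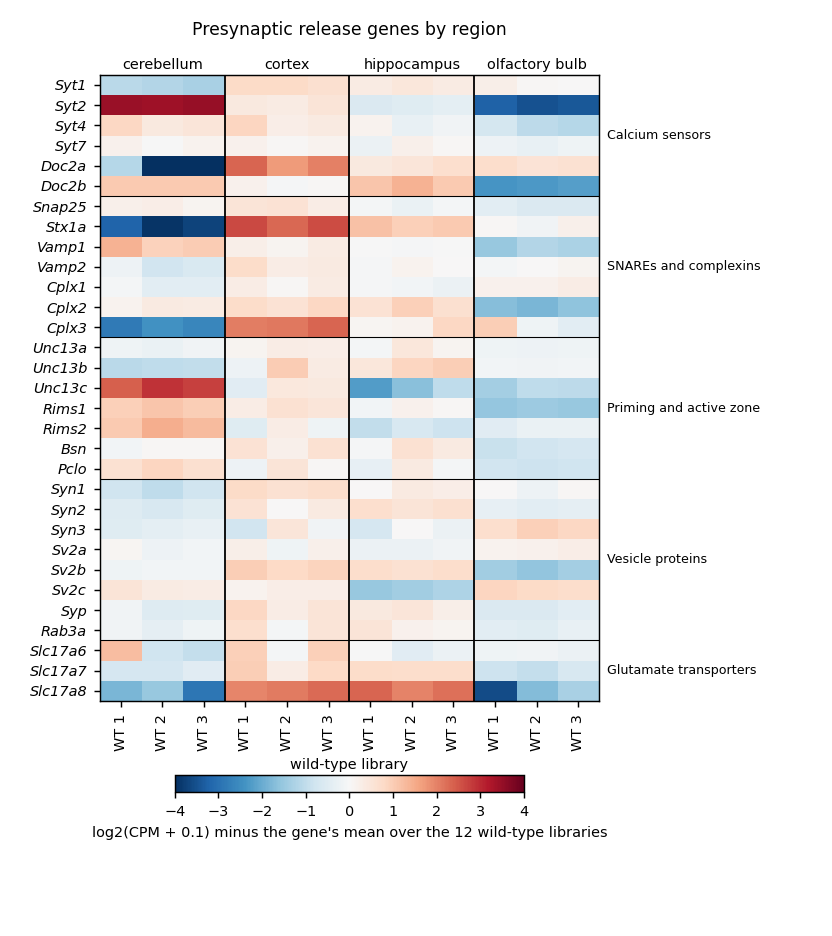
Heat map of the 31 members (rows, grouped by role) in the 12 wild-type libraries (columns). Colour gives log2(CPM + 0.1) minus the gene's mean over these libraries, red for higher and blue for lower. Syt2 and Unc13c stand out in cerebellum, Stx1a, Doc2a and Cplx3 are low there, and Syt2 and Doc2b are low in olfactory bulb.

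Among the calcium sensors, Syt2, a fast synaptotagmin, varied most. Its wild-type CPM values were 605, 573 and 618 in cerebellum, 71.9, 68.6 and 78.1 in cortex, 36.7, 39.1 and 41.5 in hippocampus, and 5.71, 4.77 and 5.07 in olfactory bulb. No library of one region overlapped another region, and the cerebellar mean was 116 times that of olfactory bulb. Syt2 passed the threshold in all 4 contrasts. Its log2 difference was 4.61 in cerebellum (SE 0.08, adjusted p = 6.93e-14), 0.57 in cortex (SE 0.08), -0.67 in hippocampus (SE 0.09) and -4.51 in olfactory bulb (SE 0.12, adjusted p = 3.97e-12). The sum of 4 genes listed as Purkinje cell markers (Pcp2, Car8, Calb1 and Itpr1) moved with it. Over both genotypes it was 5640 to 6390 CPM in cerebellum, 1270 to 1470 in cortex, 823 to 1040 in hippocampus and 251 to 321 in olfactory bulb. A sum does not tell the 4 genes apart, and the part of Purkinje cells in the result was not tested. An annotated gene, Ppp1r12b, overlaps Syt2 on the other strand.

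Syt1, the main fast sensor of forebrain synapses, had the reverse pattern in cerebellum. It measured 535, 501 and 460 CPM there, 1950, 1920 and 1770 in cortex, 1420, 1550 and 1430 in hippocampus and 1340, 1180 and 1150 in olfactory bulb. The cerebellar libraries lay below all others, by 1.59 on the log2 scale (log2 difference -1.59, SE 0.09, adjusted p = 3.39e-09). Per kilobase of exon, cerebellum held 78.4 ± 3.02 CPM of Syt2 and 59.8 ± 4.53 of Syt1 (SD, n = 3), whereas cortex held 9.54 ± 0.628 and 225 ± 11.5. Within the 4 synaptotagmins measured, Syt2 made up 30.5% ± 1.91 of the per-length signal in cerebellum, 2.72% ± 0.314 in cortex, 1.89% ± 0.125 in hippocampus and 0.324% ± 0.0114 in olfactory bulb (SD, n = 3). Syt1 made up 23.2% ± 1.5 in cerebellum and 64.1% to 69.9% elsewhere. Cerebellum was therefore the only one of the 4 regions in which Syt2 exceeded Syt1 per length. With the longest transcript as the length, Syt1 took 32.7% and Syt2 27.6% there, so the order of that pair in cerebellum depends on the gene length used, while the difference between regions does not.

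Syt4, which does not bind calcium in the way Syt1 does, ranged from 283 CPM in cerebellum to 97.4 in olfactory bulb. It was higher in cerebellum (log2 difference 0.76, SE 0.13) and cortex (0.68, SE 0.13) and lower in olfactory bulb (-1.27, SE 0.15, adjusted p = 1.51e-05). Syt7, a slow high-affinity sensor, was the member with the smallest regional range: 357 CPM in cortex against 280 in olfactory bulb, a ratio of 1.27. Of the 6 pairs of regions, cortex against olfactory bulb passed the threshold for Syt7 (0.33, adjusted p = 0.0403), and the other 5 did not (adjusted p from 0.0635 to 0.844).

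The Doc2 proteins, calcium sensors of spontaneous and asynchronous release, were divided between regions. Doc2b measured 95, 95 and 93.8 CPM in cerebellum, 100, 121 and 94.9 in hippocampus, 51.6, 44.3 and 47.3 in cortex, and 8.81, 9.17 and 9.91 in olfactory bulb. Cerebellum and hippocampus did not differ past the threshold (log2 difference -0.13, adjusted p = 0.401), and olfactory bulb was lower than the rest (-3.04, SE 0.13, adjusted p = 3.11e-10). Doc2a measured 36.9, 23.6 and 29.5 CPM in cortex, 9.54 to 11.5 in hippocampus, 10.5 to 11.9 in olfactory bulb, and 3.23, 0.309 and 0.302 in cerebellum. Per length, Doc2b made up 98% ± 2.61 in cerebellum, 86.6% ± 2.21 of the pair in hippocampus, 50.9% ± 3.69 in cortex and 34.9% ± 2.33 in olfactory bulb (SD, n = 3). With the longest transcript as the length, Doc2b made up 48.4% in cortex, so the order of the pair there depends on the length used. The spread of Doc2a in cerebellum came from 1 library in each genotype: wild type 1 stood at 3.23 CPM and knockout 1 at 3.65, against 0.296 to 0.411 in the other 4. Tcf7l2, 1 of the 4 genes listed as thalamic markers, was also high in those libraries, at 59.1 and 47.5 CPM against 11.4 to 12.8 in the other 4. The sum of the 4 markers differed less, at 771 and 747 CPM against 661 to 720, and does not tell the genes apart. The part of thalamic tissue in the Doc2a values was not tested.

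**Figure D2:**
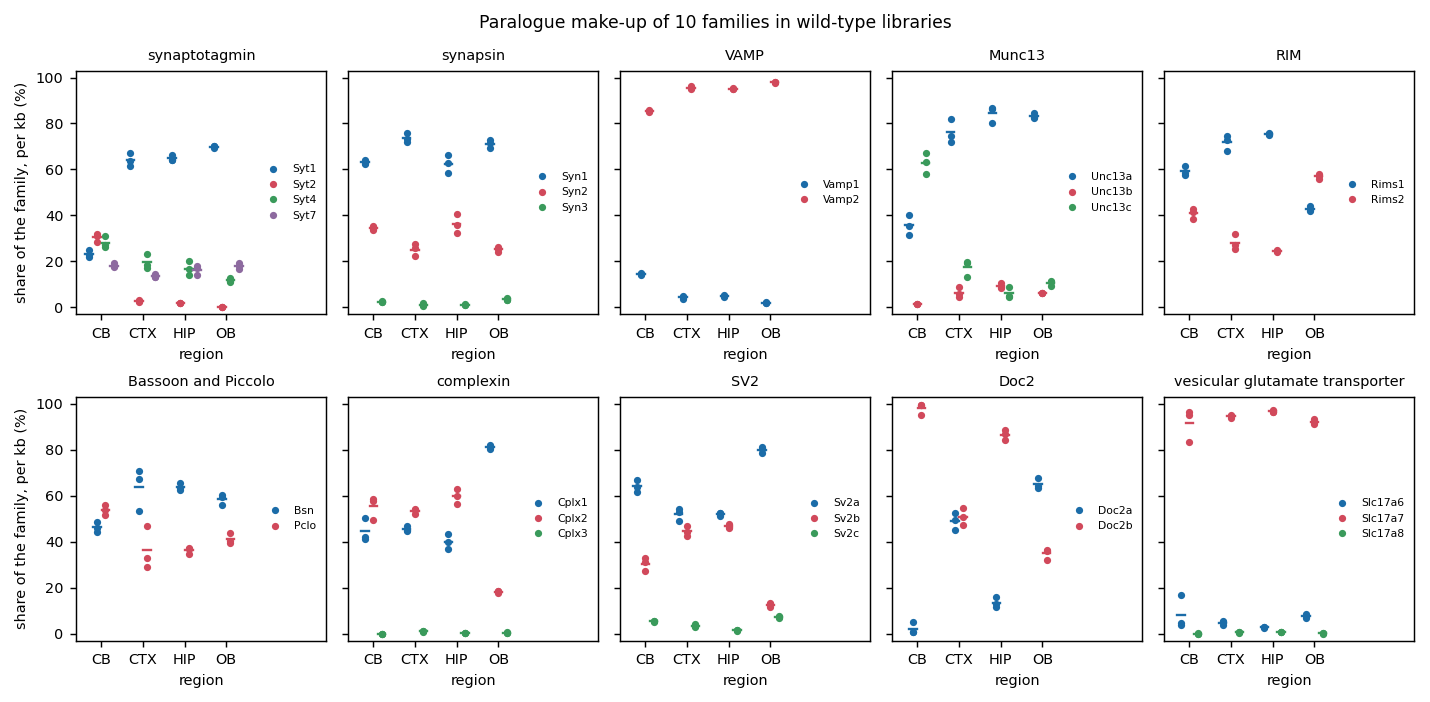
Share of each paralogue within its family (vertical axis, percent of the family's CPM per kilobase of exon) in the 3 wild-type libraries of cerebellum (CB), cortex (CTX), hippocampus (HIP) and olfactory bulb (OB). Points are libraries and bars their means. Unc13c takes 62.9% of the Munc13 family in cerebellum, and Cplx1 takes 81.3% of the complexins in olfactory bulb.

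Among the SNAREs, Stx1a, a plasma membrane syntaxin, was nearly missing from cerebellar RNA. It measured 2.96, 1.73 and 2.05 CPM in cerebellum, 176, 137 and 170 in cortex, 62.4, 54.6 and 58.2 in hippocampus, and 29, 25.2 and 32.4 in olfactory bulb. The 4 regions did not overlap, and cortex stood 71.6 times above cerebellum. The log2 difference was 3.36 in cortex (SE 0.12, adjusted p = 2.5e-10), 1.37 in hippocampus (SE 0.12) and -4.81 in cerebellum (SE 0.18, adjusted p = 7.11e-11). In olfactory bulb it was 0.08 (adjusted p = 0.685). Its partner Snap25 varied by a factor of 1.99, from 1670 to 2020 CPM in cortex to 914 to 1010 in olfactory bulb, and was higher in cortex (0.63, SE 0.08, adjusted p = 3.58e-05).

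Vamp1 and Vamp2 are the vesicular SNAREs. Vamp1 measured 220, 161 and 171 CPM in cerebellum, 99.5, 91 and 106 in cortex, 83.4, 81.4 and 84.1 in hippocampus, and 29.1, 37.6 and 34.6 in olfactory bulb. It was higher in cerebellum (log2 difference 1.49, SE 0.1, adjusted p = 1.8e-08) and lower in olfactory bulb (-1.72, SE 0.12, adjusted p = 5.37e-08). Cortex and hippocampus did not differ past the threshold (0.28, adjusted p = 0.219). Vamp2 was highest in cortex, with 974, 713 and 759 CPM, and lowest in cerebellum, with 508, 347 and 381. Vamp2 dominated everywhere per length, but Vamp1 made up 14.4% ± 0.419 of the pair in cerebellum and 2.07% ± 0.202 in olfactory bulb (SD, n = 3), with 4.4% in cortex and 4.9% in hippocampus between them.

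Complexins bind the assembled SNARE complex. Cplx2 measured 1060, 1350 and 1090 CPM in hippocampus, 1160, 1050 and 1250 in cortex, 775, 906 and 875 in cerebellum, and 218, 200 and 233 in olfactory bulb. It passed the threshold in all 4 contrasts, with a log2 difference of -2.24 in olfactory bulb (SE 0.12, adjusted p = 4.09e-09), 0.95 in cortex, 0.93 in hippocampus and 0.36 in cerebellum (adjusted p = 0.00975). The cerebellar call was lost without cerebellum wild type 2 (0.31, adjusted p = 0.0607). Cplx1 varied by a factor of only 1.44 between regional means, so the make-up of the family shifted with Cplx2. Cplx1 made up 81.3% ± 0.822 of the complexins in olfactory bulb and 39.9% to 45.6% in the other regions. Cplx3, a complexin of retinal ribbon synapses and of some cortical neurons, was rare: 11.7, 12.1 and 14 CPM in cortex, 2 to 5.46 in hippocampus and olfactory bulb, and 0.299, 0.432 and 0.363 in cerebellum. It was higher in cortex (2.98, SE 0.26, adjusted p = 1.1e-06).

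Munc13 proteins, encoded by Unc13 genes, make vesicles competent for fusion. Unc13c measured 382, 533 and 486 CPM in cerebellum, 52.6, 97.2 and 95.1 in cortex, 15.2, 22.5 and 36.2 in hippocampus, and 28.4, 35.8 and 34.7 in olfactory bulb. Every cerebellar library lay above every other library, with a log2 difference of 3.53 (SE 0.21, adjusted p = 7.38e-09), while hippocampus and olfactory bulb overlapped and did not differ past the threshold (adjusted p = 0.23). The granule cell markers were also highest in cerebellum, where they summed to 2890, 2570 and 2610 CPM in wild type 1, 2 and 3. In the other wild-type libraries they summed to 100 to 117 CPM in olfactory bulb, 37 to 61.1 in cortex and 27.9 to 33 in hippocampus. The part of granule cells in the Unc13c values was not tested. Unc13a was nearly even, between 375 CPM in cerebellum and 501 in cortex. Unc13c made up 62.9% ± 4.61 of the family in cerebellum and Unc13a 35.7% ± 4.51, whereas Unc13a made up 76.2% to 84.5% elsewhere. Unc13b measured 26.6, 27.8 and 28.3 CPM in cerebellum, 76.6, 101 and 111 in hippocampus, and 48.2, 114 and 70.9 in cortex. The cortical libraries of replicate 2 stood apart in both genotypes: wild type 2 had 114 CPM of Unc13b and knockout 2 had 108, and their share of reads outside annotated features was 56.19% and 53.75%, against 20.34% to 34.9% in the other 4 cortical libraries. The part of that share in the spread was not tested.

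RIM proteins recruit calcium channels and Munc13 to the active zone. Rims1 measured 576, 638 and 588 CPM in cerebellum, 365, 446 and 409 in cortex, 273, 333 and 304 in hippocampus, and 100, 107 and 104 in olfactory bulb. The 4 regions did not overlap, and the log2 difference in olfactory bulb was -1.99 (SE 0.11, adjusted p = 3.53e-09). Rims2 was highest in cerebellum as well, at 505, 669 and 592 CPM, but lowest in hippocampus, at 124, 157 and 138. Rims2 made up 57% ± 1.2 of the pair in olfactory bulb, 40.8% ± 2.26 in cerebellum, 28.2% ± 3.49 in cortex and 24.6% ± 0.402 in hippocampus (SD, n = 3). With the longest transcript as the length, Rims2 took 56.7% in cerebellum, so which of the pair was larger there depends on the length used.

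Bassoon and Piccolo, encoded by Bsn and Pclo, are the large scaffolds of the active zone. Bsn measured 1560, 1200 and 1580 CPM in cortex, 1010, 1570 and 1330 in hippocampus, 967, 1070 and 1080 in cerebellum and 563, 614 and 655 in olfactory bulb. Olfactory bulb lay below all other libraries (log2 difference -1.01, SE 0.14, adjusted p = 5.28e-05). Pclo was highest in cerebellum, at 1590, 1920 and 1620 CPM, and was also lowest in olfactory bulb, at 618, 588 and 603. Pclo made up 53.8% ± 2.22 of the pair in cerebellum and 36.3% to 41.3% in the other 3 regions.

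Of the vesicle proteins, the synapsins tether vesicles to the cytoskeleton and to each other. Syn1 measured 252, 217 and 252 CPM in cerebellum, below every other library, and 747, 659 and 707 in cortex, above every other library. Its log2 difference in cerebellum was -1.15 (SE 0.11, adjusted p = 6.44e-07). Syn2 passed the threshold in all 4 contrasts, higher in hippocampus (0.77, SE 0.1) and cortex (0.44, SE 0.1) and lower in cerebellum (-0.74, SE 0.11) and olfactory bulb (-0.48, SE 0.11). Syn3 was highest in olfactory bulb, where 70.8, 84.9 and 77.7 CPM stood above the 25.9 to 62 of the other 9 libraries (1.09, SE 0.19, adjusted p = 0.000488).

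SV2 proteins are vesicle glycoproteins that shape release. Sv2b measured 752, 653 and 693 CPM in cortex, 612, 578 and 618 in hippocampus, 331, 350 and 351 in cerebellum, and 144, 125 and 148 in olfactory bulb. Cortex and hippocampus did not differ past the threshold (adjusted p = 0.169), and olfactory bulb was lower than the rest (log2 difference -1.89, SE 0.09, adjusted p = 1.67e-09). Sv2c, by contrast, was highest in olfactory bulb and lowest in hippocampus: 97.9, 91.9 and 88.2 CPM in olfactory bulb, 77, 68 and 66.1 in cerebellum, 59.7, 65.6 and 65 in cortex, and 18.8, 20.8 and 23 in hippocampus. It was higher in olfactory bulb (1.06, SE 0.09, adjusted p = 2.82e-07), cerebellum (0.5, SE 0.09) and cortex (0.31, SE 0.09), and lower in hippocampus (-1.87, SE 0.1, adjusted p = 1.3e-08). The cortical call was lost without cortex wild type 3 (0.30, adjusted p = 0.0701) and without TMM (0.19, adjusted p = 0.135). Sv2a was nearly even, at 371 to 488 CPM by region, so it made up 80.1% ± 1.17 of the family in olfactory bulb against 51.9% to 64.2% elsewhere, while Sv2b made up 46.7% in hippocampus and 12.7% in olfactory bulb. With the longest transcript as the length, Sv2b exceeded Sv2a in cortex (53.2% against 43.9%) and hippocampus (55.4% against 43.5%), so their order there depends on the length used.

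Syp, which encodes synaptophysin, an abundant vesicle membrane protein, was higher in cortex (log2 difference 0.74, SE 0.11, adjusted p = 0.000195) and hippocampus (0.45, SE 0.11) and lower in cerebellum (-0.5, SE 0.12) and olfactory bulb (-0.69, SE 0.12). The hippocampal call was lost without hippocampus wild type 2 (0.38, adjusted p = 0.063). Rab3a, the vesicle GTPase that binds RIM, measured 431, 259 and 387 CPM in cortex and 197 to 221 in olfactory bulb. Its higher level in cortex (0.52, SE 0.13, adjusted p = 0.00782) was lost without cortex wild type 1 (0.37, adjusted p = 0.0778) or wild type 3 (0.47, adjusted p = 0.0518).

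The vesicular glutamate transporters fill vesicles and mark types of glutamatergic neuron. Slc17a7 (VGLUT1) measured 1110, 696 and 982 CPM in cortex, 939, 923 and 912 in hippocampus, 353, 357 and 409 in cerebellum, and 317, 290 and 359 in olfactory bulb. It passed the threshold in all 4 contrasts, with log2 differences of 0.96 and 0.91 in cortex and hippocampus and of -0.81 and -1.06 in cerebellum and olfactory bulb. It made up 91.7% to 96.7% of the family per length in each region. Slc17a8 (VGLUT3) measured 4.49 to 5.54 CPM in cortex and 4.55 to 5.88 in hippocampus, and 0 to 0.384 in cerebellum and olfactory bulb. Its log2 difference was 3.01 in hippocampus (SE 0.32, adjusted p = 7.79e-06) and 2.95 in cortex (SE 0.33), and it was lower in cerebellum (-3.15) and olfactory bulb (-2.8).

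Slc17a6 (VGLUT2), the transporter of thalamic and brainstem neurons, was the single member past the threshold in no contrast. It measured 70.5, 17.4 and 15.4 CPM in cerebellum, 58.1, 28.8 and 58.2 in cortex, 30, 21.9 and 25.7 in hippocampus and 26.8, 27.2 and 25.5 in olfactory bulb. Cerebellum wild type 1 stood far above its replicates, and cortex wild type 2 below its own. Markers of hypothalamus moved with it in cortex: the 4 hypothalamic markers summed to 42.9, 2.77 and 28 CPM in cortex wild type 1, 2 and 3 and to 1.28 to 5.71 in the cortical knockout libraries. In the same wild-type libraries of cortex the thalamic markers summed to 214, 233 and 276 CPM and the striatal markers to 217, 319 and 379. In cerebellum the 4 thalamic markers, which include the Purkinje cell gene Rora, summed to 771, 690 and 661 CPM in wild type 1, 2 and 3, and Tcf7l2 among them measured 59.1, 11.9 and 12.8. Cerebellum knockout 1, where Tcf7l2 was also high, had 23.4 CPM of Slc17a6, against 20.1 and 14.7 in knockout 2 and 3. The part of tissue at the edge of the dissection in these values was not tested.

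**Figure D3:**
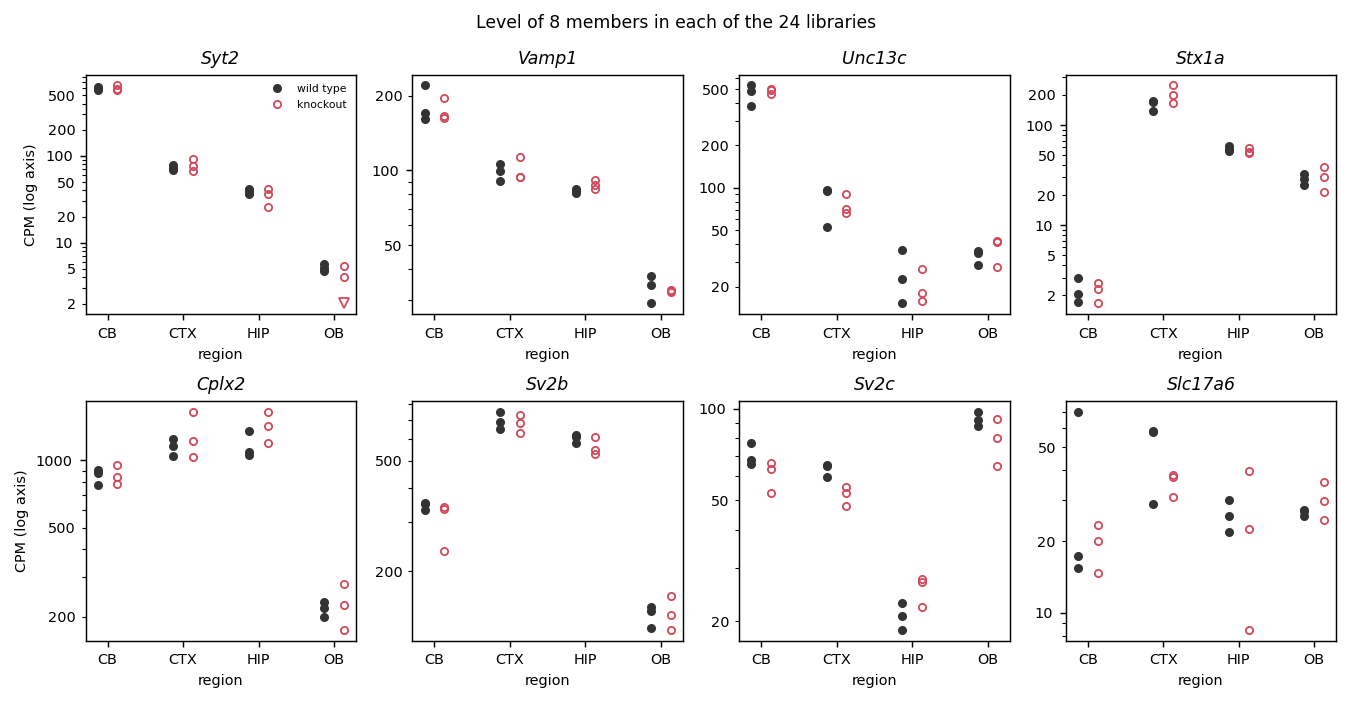
CPM (log axis) of 8 members in each of the 24 libraries, by region, with wild-type libraries as filled points and knockout libraries as open ones. A triangle marks the olfactory bulb knockout library with 0 counts of Syt2. Regions stand apart for Syt2 and Stx1a, while for Cplx2 olfactory bulb lies lowest and cortex and hippocampus overlap. Filled and open points of a region mostly lie together, and Slc17a6 scatters within cerebellum and cortex.

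Ratios between paralogues do not depend on library size or, between regions, on gene length. The log2 ratio of 17 pairs was compared between each region and the other 3 by an exact two-sided permutation test over the 12 wild-type libraries (3 against 9), which is 68 comparisons. In 20 of them the 3 libraries lay all above or all below the other 9, at the smallest p the test allows (exact p = 0.00909, adjusted p = 0.0309): 9 in cerebellum, 8 in olfactory bulb, 3 in hippocampus and none in cortex. Leaving out 1 library gave 0 to 22, and 0 whenever a cerebellar or olfactory bulb library was left out, because the smallest p then no longer passes after adjustment. Only the region with the highest or the lowest ratio can reach the smallest p. It does so wherever its libraries do not overlap the other 9, whether or not the other 3 regions are alike. The test treats the 12 libraries as independent, although same-numbered libraries of cerebellum and cortex deviated together. Those of olfactory bulb did so more weakly with cerebellum and with cortex. In cerebellum the log2 ratio of Syt2 to Syt1 was 6.2 above the mean elsewhere, that of Unc13c to Unc13a 3.82, that of Vamp1 to Vamp2 2.19 and that of Pclo to Bsn 0.94. In olfactory bulb the ratio of Cplx1 to Cplx2 was 2.53 above the mean elsewhere and that of Rims2 to Rims1 1.58, while Sv2b to Sv2a lay 2.18 below (difference -2.18). In hippocampus Sv2c to Sv2a (-1.57), Rims2 to Rims1 (-1.12) and Slc17a6 to Slc17a7 (-1.27) were lower. In the 12 knockout libraries, which are separate samples, all 20 differences had the same sign and 17 passed the threshold again.

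The regional contrasts of single members were likewise repeated in the knockout libraries. Of 85 calls in the 4 wild-type contrasts, all 85 had the same sign in the knockout libraries, and 79 passed the threshold there. By region these were 22 of 24 in cerebellum, 21 of 23 in cortex, 15 of 16 in hippocampus and 21 of 22 in olfactory bulb. Among those lost were Cplx2 in cerebellum (log2 difference 0.2 in the knockout libraries, adjusted p = 0.305), Sv2c in cortex (0.05, adjusted p = 0.823) and Syt2 in hippocampus (-0.7, adjusted p = 0.098).

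**Figure D4:**
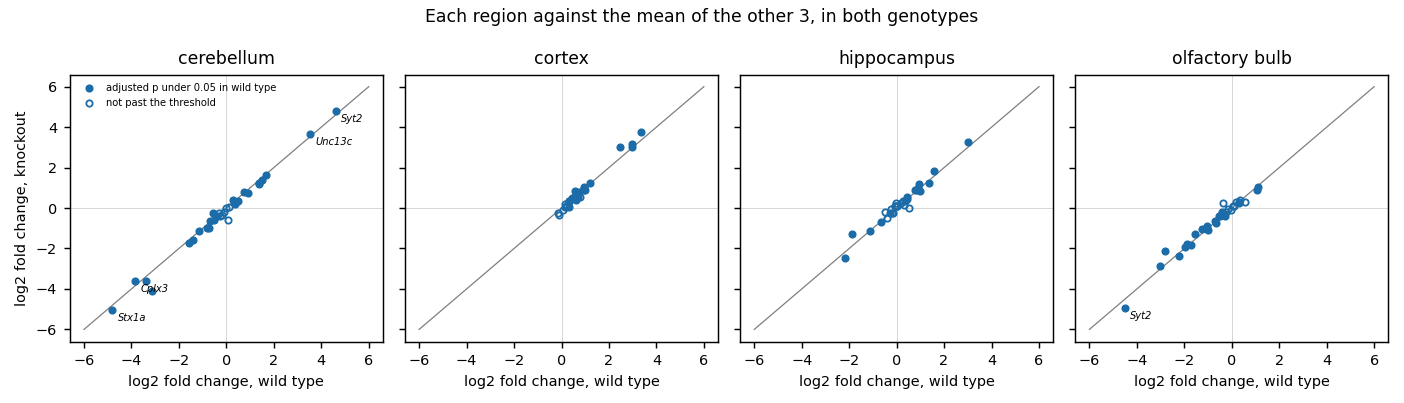
Log2 fold change of each member in a region against the mean of the other 3, in wild-type (horizontal axis) and knockout libraries (vertical axis), 1 panel per region. Filled points passed an adjusted p of 0.05 in wild type and the line marks equal values. Points lie along the line in all 4 panels.

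Other genes with a profile like that of Syt2, Vamp1 or Slc17a6 over the 12 wild-type libraries were sought among 13058 genes by Pearson's r of log2 CPM, as a description. The 5 nearest to Syt2 were Itpr1 (r = 0.999), Hpcal1 (0.991), Tenm1 (0.991), Kcna1 (0.988) and Sel1l3 (0.988). Those nearest to Vamp1 were Dab2ip (0.984), Nefh (0.98), Itpr1 (0.979), Calb1 (0.979) and Syt2 itself (0.978). Itpr1 and Calb1 are on the list of Purkinje cell markers. For Slc17a6 no gene exceeded Pafah1b2 (0.867), followed by Zfhx3 (0.853), Selenot (0.845), Rnd2 (0.838) and Tmem33 (0.833). The 12 libraries fall into 4 regions, so these values mostly compare 4 regional levels.

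A wider list of 56 other presynaptic genes, of which 54 were tested, was described in the same way. In cortex 29 were higher (53.7%, against 19% of all genes) and 9 lower (16.7%, against 14.5%). In cerebellum 17 were higher (31.5%, against 22.7%) and 23 lower (42.6%, against 24.1%). In hippocampus 21 were higher (38.9%, against 15.3%) and 17 lower (31.5%, against 10.6%). In olfactory bulb 11 were higher (20.4%, against 18.4%) and 24 lower (44.4%, against 17.5%). The lower share in cortex and the higher share in olfactory bulb were thus near those of all genes. The median log2 difference of this list was 0.29 in cortex, 0.22 in hippocampus, -0.11 in cerebellum and -0.23 in olfactory bulb. The largest differences in cerebellum were those of Slc18a2, the vesicular monoamine transporter (-3.97, SE 0.72), and Unc13d, a Munc13 of secretory cells (2.61, SE 0.19). In olfactory bulb they were Rph3a, a Rab3 effector (-3.85, SE 0.17), and Syt6 (3.92, SE 0.11). Syt5 (1.98, SE 0.19) and Ppfia4, a liprin of the active zone (-1.29, SE 0.12), led in cortex, and Syt17 (2.42, SE 0.13) and Syt6 (-2.96, SE 0.15) in hippocampus.

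Knockout and wild type were then compared within each region, to ask whether loss of Cdr1as changed the release genes. No member passed an adjusted p of 0.05 with edgeR's quasi-likelihood test in any region. Of all genes tested, 0.00644% passed in cerebellum, 0.00634% in cortex, 0.0062% in hippocampus and 0.0253% in olfactory bulb, Cdr1as among them each time. DESeq2 called no member either. At an unadjusted p under 0.05, edgeR had none of 28 members in cerebellum (1.89% of all genes), 1 of 31 in cortex (5.64%), 1 of 31 in hippocampus (4.01%) and none of 30 in olfactory bulb (2.43%). DESeq2 had 1, 1, 1 and 0. Cplx3, Doc2a and Slc17a8 in cerebellum and Slc17a8 in olfactory bulb were too low to be tested. Most effects were small: the log2 fold change lay within 0.25 of 0 for 26 of 28 members in cerebellum, 28 of 31 in cortex, 26 of 31 in hippocampus and 28 of 30 in olfactory bulb, with median standard errors of 0.12, 0.16, 0.12 and 0.13. The median log2 fold change of the members was -0.01, 0, 0.05 and 0.05 in the same order, and that of all genes -0.04, 0, -0.02 and -0.01.

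**Figure D5:**
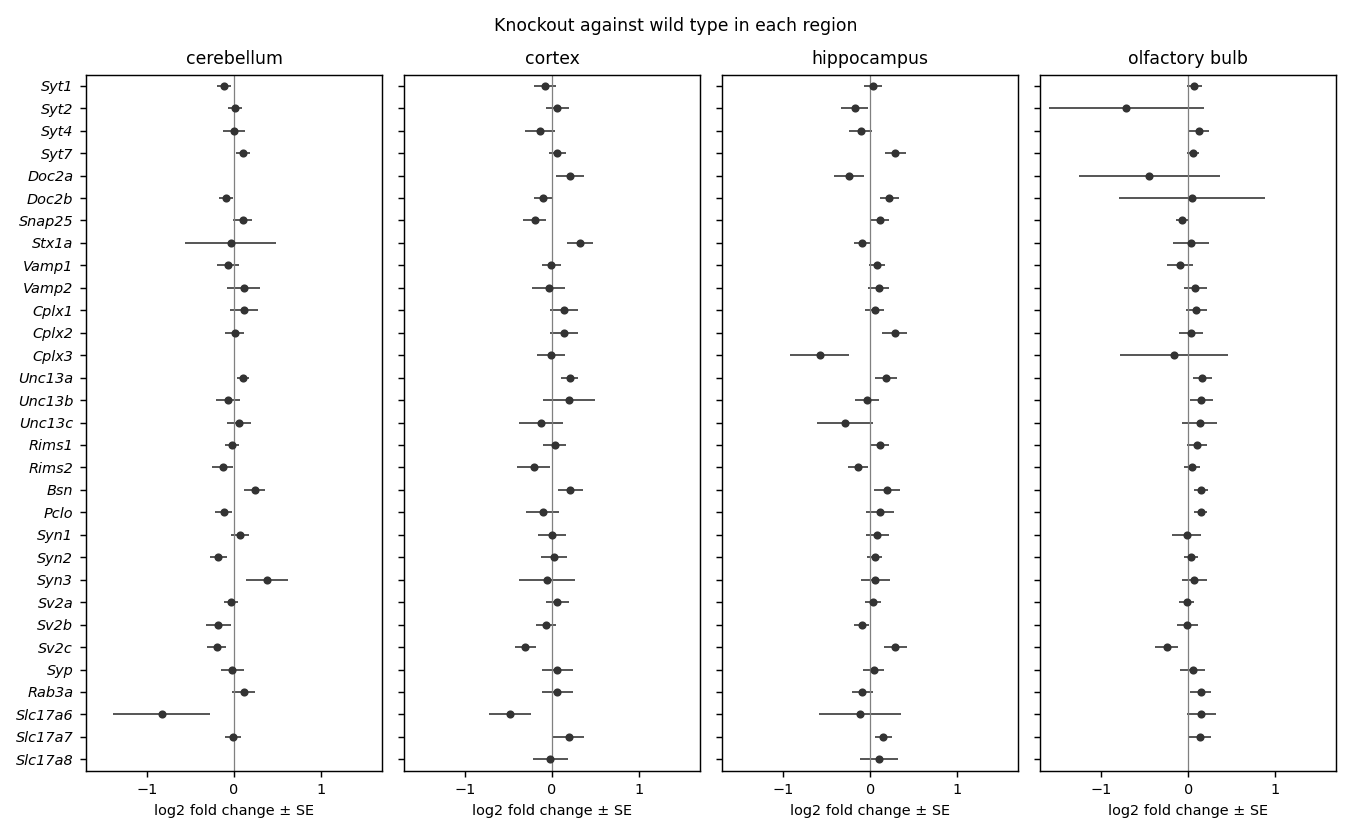
Log2 fold change of knockout against wild type with its standard error (horizontal axis) for each member tested (rows) in the 4 regions. Values cluster around 0, and the wide bars of Syt2, Doc2a and Doc2b in olfactory bulb belong to genes with 0 counts in 1 knockout library.

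The members with the smallest p in each region are given with every library. In cortex Sv2c measured 53.1, 55.4 and 48.1 CPM in knockout and 59.7, 65.6 and 65 in wild type, without overlap (log2 fold change -0.31, SE 0.12, unadjusted p = 0.0295, adjusted p = 0.858). In hippocampus it measured 22.4, 27.6 and 27 in knockout and 18.8, 20.8 and 23 in wild type, with overlap (0.29, SE 0.13, adjusted p = 0.953). In cerebellum Sv2c measured 52.8, 63.5 and 66.6 against 77, 68 and 66.1 (-0.2, SE 0.11). In olfactory bulb it measured 80.3, 65 and 92.8 against 97.9, 91.9 and 88.2 (-0.25, SE 0.13). Both pairs of groups overlapped. The difference of the Sv2c effect in hippocampus from the mean effect in the other 3 regions was 0.54 on the log2 scale (SE 0.15, unadjusted p = 0.00155), but over 17600 genes its adjusted p was 1. No member passed the threshold in that test, and 0.00568% of all genes did. Without the 3 shallow libraries it was 0.49 (SE 0.13, adjusted p = 1). Sv2c was the single member with an unadjusted p under 0.05 there, against 1.26% of all genes, and no member had one in the same test of the other 3 regions.

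Syt7 in hippocampus measured 409, 384 and 434 CPM in knockout and 279, 378 and 341 in wild type, without overlap (log2 fold change 0.29, SE 0.12, unadjusted p = 0.0392, adjusted p = 0.953). Cplx2 there measured 1640, 1190 and 1420 against 1060, 1350 and 1090, with overlap (0.28, SE 0.14). The 4 choroid plexus markers summed to 2300, 32.4 and 1810 CPM in hippocampus wild type 1, 2 and 3 and to 32.7 to 37.7 in the knockout libraries, and Syt7 and Cplx2 were lowest in wild type 1 and 3. Their part in these values was not tested. The log2 fold change of Syt7 was 0.18 without wild type 1 and 0.31 without wild type 3, and that of Cplx2 was 0.21 and 0.23. In cortex Stx1a measured 249, 167 and 201 against 176, 137 and 170 (0.32, SE 0.15), and Slc17a6 37.3, 30.9 and 38.1 against 58.1, 28.8 and 58.2 (-0.48, SE 0.24), both overlapping. With the replicate number as a block in cortex, 5 members had an unadjusted p under 0.05 in place of 1: Stx1a (0.31, adjusted p = 0.237), Sv2c (-0.31, adjusted p = 0.277), Slc17a6 (-0.43, adjusted p = 0.281), Bsn (0.22, adjusted p = 0.362) and Slc17a7 (0.2, adjusted p = 0.382). Groups did not overlap for Doc2b in cerebellum, 1 member (11.4% of all genes), for Unc13a and Sv2c in cortex, 2 members (13.5%), for Syt7 and Vamp1 in hippocampus, 2 members (9.62%), and for Syt7, Unc13b, Bsn and Pclo in olfactory bulb, 4 members (12.2%).

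In cerebellum Bsn measured 1410, 1200 and 1080 CPM in knockout and 967, 1070 and 1080 in wild type (log2 fold change 0.24, SE 0.12). Syn2 measured 210, 271 and 259 against 284, 262 and 295 (-0.18, SE 0.1), with overlap. In olfactory bulb Bsn measured 689, 670 and 721 against 563, 614 and 655 (0.15, SE 0.08), and Pclo 745, 664 and 632 against 618, 588 and 603 (0.14, SE 0.08), both without overlap. Averaged over the 4 regions with limma on 6 means, Bsn had the smallest p of the members (0.21, SE 0.08, unadjusted p = 0.0282, adjusted p = 0.908), followed by Unc13a (0.16, SE 0.08) and Syt7 (0.13, SE 0.07). No member passed the threshold in that test, 0.0114% of all genes did, and 1 of 31 members had an unadjusted p under 0.05 (5.06% of all genes). With the replicate number as a block in that test, 2 members had one, Bsn and Unc13a (adjusted p = 0.705 for both).

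Single libraries stood behind the widest errors. Olfactory bulb knockout 2 had 0 counts of Syt2, Doc2a and Doc2b, while its replicates had 5.39 and 4.02 CPM of Syt2 and 14.6 and 14.1 of Doc2b. The cause of the 0 counts was not tested. The Syt2 effect in olfactory bulb was -0.71 (SE 0.89), and -0.11 (SE 0.23) without the 2 shallow libraries of the region. Without them Doc2b was at 0.54 (SE 0.15, unadjusted p = 0.00295, adjusted p = 0.375). Slc17a6 in cerebellum had a log2 fold change of -0.83 (SE 0.56), with 23.4, 20.1 and 14.7 CPM in knockout against 70.5, 17.4 and 15.4 in wild type, and wild type 1 stood apart.

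The 5 members with a miR-7 match were described apart, because Cdr1as binds this microRNA. Their log2 fold changes lay between -0.09 and 0.38 in cerebellum, -0.1 and 0.14 in cortex, -0.18 and 0.28 in hippocampus, and -0.71 and 0.09 in olfactory bulb, where the lowest value is Syt2 with the library at 0. The medians were 0.01, 0.06, 0.06 and 0.04. For the 7 members with a miR-671-5p match they were 0.01, -0.01, 0.19 and 0.05. None of these members passed the threshold. The paralogue ratios of knockout and wild type can be compared by 3 against 3 libraries, where the smallest exact two-sided permutation p is 0.1. Of the 68 ratios, 7 reached it, a share close to that p itself, and none can pass the threshold in this design. The largest of the 7 was Syt2 to Syt1 in olfactory bulb (-2.18), which includes the library with 0 counts of Syt2. Among the others, Syt7 to Syt1 differed by 0.28 in hippocampus and Pclo to Bsn by -0.35 in cerebellum.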

How the data were processed

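Gene counts from 24 libraries were used as deposited by the authors. STAR 2.5.1b, HTSeq 0.6.1p1 and the build mm9 are named in the submitters' processing notes. The strand setting is not given in the sources used here, and 13 members overlap an annotated gene on the other strand. The 5 summary entries were left out: reads outside features (20.34% to 62.92% of the reads in each file), ambiguous (0.2% to 0.45%), not uniquely aligned (8.78% to 21.41%) and the like. Counts of genes with a symbol made up 98.56% of the rest. Members and lists were chosen with earlier results of these data known.

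Each region was tested with edgeR 4.0.16 (quasi-likelihood, TMM, minimum count 10, R 4.3.3) on its 6 libraries, and the wild-type regions on 12. CPM values were scaled by TMM over 24 libraries. The mean over regions used limma 3.58.1 on log2 CPM with a prior count of 2, computed here from the deposited counts. Ratios used a pseudocount of 0.5 and lengths the union of exons in GENCODE M21. P-values were adjusted over all genes tested at a threshold of 0.05. Alternatives were DESeq2 1.42.0, other scaling, filters, fits and lengths, a replicate block, leaving out libraries and, added after seeing the data, leaving the 3 shallow libraries out of the interaction. The contrasts between pairs of wild-type regions were also added to the plan. The edgeR knockout test of each region and the wild-type cerebellum contrast were checked on simulated counts, with 200 changed genes per comparison. The permutation test was checked on random values with and without a shift. The other tests were not checked on simulated data.

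Named were each family's member with the smallest p between regions, members past the threshold in all 4 contrasts, the 3 with the smallest p in each knockout comparison, Cdr1as, up to 3 of the other presynaptic genes with the largest change each way, and the 5 genes most alike to Syt2, Vamp1 and Slc17a6 (mean log2 CPM of at least 1). Same-numbered knockout and wild-type libraries deviated together in cortex (correlations 0.48, 0.65 and 0.25). The means over regions did so too (0.19, 0.17 and 0.23). In cerebellum the correlations were weak (0.04, 0.06 and 0.12), though above those of libraries with different numbers (-0.07 to 0.01). In hippocampus and olfactory bulb same-numbered libraries did not deviate together. The labels do not state such pairs, and the main knockout fits did not use them, in cortex and the means included. Between regions of a genotype, same-numbered libraries deviated together most clearly in wild-type cerebellum and cortex (0.42, 0.45 and 0.47) and knockout cortex and hippocampus (0.45, 0.37 and 0.42). Several other pairs of regions did so more weakly. In wild-type cerebellum and olfactory bulb the correlations were 0.1, 0.17 and 0.2, against -0.12 to -0.02 for different numbers. In knockout cerebellum and cortex they were 0.15, 0.15 and 0.12, against -0.17 to 0.02. Some pairs did not, such as wild-type cerebellum and hippocampus (0.2, 0.22 and -0.19). The regional fits treat libraries as independent, and a replicate block was run as an alternative. All replicate pairs differed by more than sampling noise.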

Additional observations from a re-analysis of the deposited data

How the results depend on the processing

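No fold change of the named members and no called paralogue ratio changed sign under any alternative run. The signs of the other members' knockout effects, and of differences of the effect between regions, were not compared. The order of some paralogues changed with the gene length: synaptotagmins and RIMs in cerebellum, and Sv2a and Sv2b in cortex and hippocampus. It also changed for Doc2a and Doc2b in cortex, and for Syn1 and Syn2 and Syt4 and Syt7 in hippocampus. No member passed the threshold between knockout and wild type under any alternative, leave-one-out included. Counts of all genes called between genotypes were small and moved. In cerebellum (1 gene) they were 19 with DESeq2, 3 without a filter, 2 with the filter of 10 counts in 3 libraries and 4 in the fit of all 24 libraries. In cortex (1) they were 40, 7 without a filter and 6 in the fit of 24. In hippocampus (1) they were 16, 5 and 2, and in olfactory bulb (4) 17, 16 and 7. The replicate block gave 30 in cortex, 6 in hippocampus, 11 in olfactory bulb and 15 for the mean over regions (2), and called no member. Between wild-type regions the block gave 11 members higher and 15 lower in cerebellum, 23 and 0 in cortex, 13 and 7 in hippocampus and 4 and 18 in olfactory bulb. The mean by edgeR on 24 libraries gave 78. Leaving out 1 library gave 1 to 3 in cerebellum, 1 to 3 in cortex, 1 to 47 in hippocampus (47 without wild type 2), 1 to 8 in olfactory bulb and 2 to 5 for the mean. DESeq2 called 3 genes for the difference of the knockout effect in cerebellum, cortex and hippocampus, against 1 each.

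Between wild-type regions, members called higher in olfactory bulb were 2 without a filter (4 in the report) and 2 to 5 leaving out 1 library, and members lower in cortex 1 in the knockout libraries and 0 to 1 leaving out 1 library. Paralogue ratios called were 20 with all wild-type libraries and 0 to 22 when 1 was left out. They were 0 without a cerebellar or olfactory bulb library, because fewer libraries raise the smallest p the exact test allows. Shares within families moved with the gene length. The cause of the other changes was not tested.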
